A study of Mus musculus with 14 samples.

Results

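YAP-only LSD1 regions at gene boundaries are stretches of mouse liver chromatin that were listed for the histone demethylase LSD1 in YAP transgenic livers without overlapping an LSD1 region of wild-type livers. They also overlapped an H3K4me2 region of YAP livers and lay within 1 kb of a boundary of a protein-coding gene, in mm10 coordinates. Of 2949 LSD1 regions in YAP livers, 2442 did not overlap LSD1 of wild-type livers, 843 of these lay at a gene boundary, and 779 of those were also on H3K4me2. The remaining 64 boundary regions lacked listed H3K4me2. The rule used presence in the LSD1 and YAP H3K4me2 lists and distance to genes, so these properties are descriptions. H3K4me2 of wild-type livers, H3K4me1, the side of the gene, promoter sequence and gene function were not used by it.

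The study profiled LSD1, H3K4me1 and H3K4me2 by chromatin immunoprecipitation in livers of YAP transgenic mice (YAP) and of wild-type mice (WT), all C57BL/6. YAP expression was inducible in the liver and was switched on with doxycycline at 50 mg/L in drinking water for 10 days. That treatment stands on every label, WT included, so it is unclear if WT mice drank it. For the promoter of the transgene, and for sex and age, the sources used here give nothing. Every antibody had 2 replicates in YAP and 2 in WT livers, and each pair of replicates stands in 1 region list, so the spread between replicates could not be measured and no test was made. Intervals below are 95% intervals of shares that treat regions as independent and cover counting error only. The livers were assayed in bulk, so a change within a cell and a change in the makeup of the tissue cannot be told apart. Of 30 hepatocyte identity genes in the gene table, 30 had H3K4me2 at a boundary in YAP livers, against 20 of 25 biliary and progenitor, 8 of 20 endothelial, 4 of 16 stellate, 3 of 14 macrophage and 3 of 14 lymphocyte markers.

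LSD1, encoded by Kdm1a, is a flavin-dependent amine oxidase that removes mono- and dimethyl groups from lysine 4 of histone H3. It works in co-repressor complexes, among them CoREST and NuRD, and is also found at active promoters. H3K4me2 marks promoters and enhancers, and H3K4me1 is typical of enhancers. YAP is the co-activator that the Hippo kinase cascade keeps out of the nucleus, and it acts on DNA mainly through TEAD transcription factors. In the liver, YAP activity drives organ growth and a loss of mature hepatocyte character.

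The 250 bases before the gene start are printed for 8 genes whose promoter lies at least in part inside a YAP-only LSD1 region, to show the sequence that these regions cover. They belong to the highest-ranked regions with such an overlap, among the genes whose promoter window in the RefSeq table begins at the boundary of the gene, a selection made after values were seen. The sequences are from RefSeq (GRCm38.p6, which has mm10 coordinates), run 5′ to 3′ toward the gene, and end at the base before the start. Capitals mark matches to 15 short motifs on either strand.
Btf3l4, chr4:108834303-108834552, minus strand: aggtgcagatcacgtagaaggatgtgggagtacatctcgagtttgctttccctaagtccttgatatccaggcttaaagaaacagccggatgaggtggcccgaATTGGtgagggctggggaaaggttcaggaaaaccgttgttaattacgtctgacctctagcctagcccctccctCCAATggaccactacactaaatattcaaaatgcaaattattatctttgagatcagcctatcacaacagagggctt
AU041133, chr10:82127763-82128012, plus strand: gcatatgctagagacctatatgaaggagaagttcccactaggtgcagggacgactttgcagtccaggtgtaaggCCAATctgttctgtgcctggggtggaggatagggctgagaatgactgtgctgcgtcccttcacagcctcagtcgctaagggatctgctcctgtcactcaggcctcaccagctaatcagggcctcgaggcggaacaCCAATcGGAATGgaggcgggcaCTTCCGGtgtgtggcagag
Rnf187, chr11:58938907-58939156, minus strand: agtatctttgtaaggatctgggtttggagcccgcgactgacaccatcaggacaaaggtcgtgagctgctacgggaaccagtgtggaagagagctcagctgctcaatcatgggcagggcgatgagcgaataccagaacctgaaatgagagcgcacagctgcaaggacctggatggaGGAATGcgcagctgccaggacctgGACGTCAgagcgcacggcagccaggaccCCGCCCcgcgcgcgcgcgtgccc
Hmgcs1, chr13:119690101-119690350, plus strand: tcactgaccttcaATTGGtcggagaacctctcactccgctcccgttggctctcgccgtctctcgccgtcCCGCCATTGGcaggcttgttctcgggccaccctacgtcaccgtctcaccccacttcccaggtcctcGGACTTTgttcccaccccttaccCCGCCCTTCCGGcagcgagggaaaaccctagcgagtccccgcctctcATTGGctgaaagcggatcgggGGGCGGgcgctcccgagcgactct
Shld1, chr2:132686681-132686930, plus strand: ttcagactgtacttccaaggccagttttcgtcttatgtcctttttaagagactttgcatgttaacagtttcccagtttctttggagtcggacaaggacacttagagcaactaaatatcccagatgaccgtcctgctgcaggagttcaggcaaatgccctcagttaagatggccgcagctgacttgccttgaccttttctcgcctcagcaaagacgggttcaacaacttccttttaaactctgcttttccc
Kctd11, chr11:69880986-69881235, minus strand: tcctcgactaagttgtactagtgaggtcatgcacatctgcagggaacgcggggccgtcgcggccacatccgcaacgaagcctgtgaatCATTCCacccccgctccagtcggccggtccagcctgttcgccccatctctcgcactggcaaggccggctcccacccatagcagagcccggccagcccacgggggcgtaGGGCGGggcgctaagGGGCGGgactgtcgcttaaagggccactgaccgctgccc
Vgll3, chr16:65814939-65815188, plus strand: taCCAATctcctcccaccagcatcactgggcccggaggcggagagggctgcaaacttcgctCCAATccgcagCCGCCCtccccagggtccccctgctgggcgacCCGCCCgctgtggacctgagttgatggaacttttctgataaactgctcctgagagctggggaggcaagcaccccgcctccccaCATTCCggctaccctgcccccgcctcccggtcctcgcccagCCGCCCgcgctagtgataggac
Rtf2, chr2:172440328-172440577, plus strand: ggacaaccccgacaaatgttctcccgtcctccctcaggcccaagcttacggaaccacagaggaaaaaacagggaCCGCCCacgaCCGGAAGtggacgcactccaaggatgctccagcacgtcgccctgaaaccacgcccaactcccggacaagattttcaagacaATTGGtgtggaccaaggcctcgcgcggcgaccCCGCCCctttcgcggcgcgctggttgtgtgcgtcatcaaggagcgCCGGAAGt
Btf3l4 held CCAAT at 2 places, 1 on each strand. AU041133 held CCAAT at 2 places, the TEAD core GGAATG and the ETS motif CCGGAAG on the opposite strand. Rnf187 held a TEAD core, the GC box GGGCGG and the cyclic AMP response element motif TGACGTC. Hmgcs1 held 3 CCAAT boxes, of which 1 overlaps a YY1 motif (ATGGCGG), 2 GC boxes, of which 1 overlaps an ETS motif, and the HNF4 motif AAAGTCC. Kctd11 held 2 GC boxes and a TEAD core, Vgll3 held 3 GC boxes, 2 CCAAT boxes and a TEAD core, and Rtf2 held 2 GC boxes, 2 ETS motifs and 1 CCAAT box. In the Shld1 window none of the 15 motifs matched. A match describes the letters and does not show that a factor was bound.

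The 779 regions covered 400 to 1010 bp, and 672 of them were single LSD1 entries, 102 were merged from 2 and 5 from 3. Their LSD1 score, a value given by the authors without a definition, ran from 540 to 1000 with a median of 738, and 147 regions (18.9%) had the highest value. Among 207 LSD1 regions found in both genotypes at boundaries with YAP H3K4me2, the median score in YAP livers was 986 and 48.8% had 1000. A WT LSD1 region lay within 1 kb of 19 of the 779. The WT list was shorter, with 1500 LSD1 regions. With the YAP list limited to its 1500 highest-scoring regions, 352 YAP-only regions met the rule, against 388 WT-only regions at boundaries with WT H3K4me2. With the full lists these counts were 779 YAP-only and 329 WT-only regions. Lists of equal length leave about as many unshared regions on each side, so the counts from the limited list are a description only.

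The boundary was almost always the start of the gene. Strand was known for every boundary near 641 regions, and 626 of them (97.7%, interval 96.2% to 98.6%) lay within 1 kb of a start. The share was 97.6% for LSD1 regions of both genotypes, 98.0% for WT-only LSD1 regions and 93.8% for YAP H3K4me2 regions at boundaries without LSD1 of YAP livers. The difference from these H3K4me2 regions was 3.88 percentage points (2.35 to 4.88). Only 15 regions were at gene ends alone, among them those at Id2, an inhibitor of basic helix-loop-helix factors, Sertad1, a regulator of CDK4, and Ifitm3, an antiviral membrane protein.

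The centres of the regions sat around the start. The start was taken as the outer boundary of the gene on its 5′ side. Over 645 regions at a start, the median centre was 33.0 bp downstream, the middle 50% ran from -189 to 218 bp, and 294 centres (45.6%) were upstream. Within 200 bp of the start were 320 centres, or 49.6% (45.8% to 53.5%), against 54.2% of LSD1 regions of both genotypes and 46.9% of WT-only regions. Of the regions with a score of 1000, 60.2% (51.2% to 68.5%) were within 200 bp of the start. The share was 50.0% (43.1% to 56.9%) from the median score up to but below 1000. Below the median score it was 45.6% (40.3% to 51.0%). The interval of the middle class overlapped both others.

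**Figure D1:**
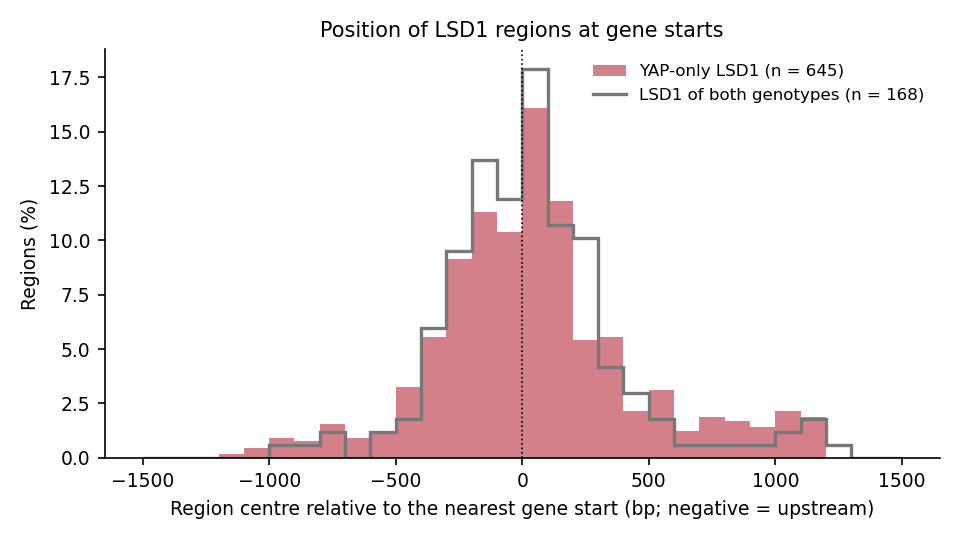
Position of region centres relative to the nearest gene start, in 100 bp bins, as a percentage of regions; filled bars are 645 YAP-only LSD1 regions and the grey line is 168 LSD1 regions of both genotypes. Both sets peak at the start, and 49.6% of the YAP-only centres and 54.2% of those of both genotypes are within 200 bp.

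Nearly all of the regions carried H3K4me2 in WT livers too, although LSD1 was listed there in YAP livers only. WT H3K4me2 overlapped 761 of 779 regions, or 97.7% (96.4% to 98.5%). For comparison, it overlapped 99.5% of 207 LSD1 regions of both genotypes and 99.4% of 322 WT-only LSD1 regions, and the intervals of both differences included 0 (-3.20 to 0.531 and -3.08 to 0.133 points). In the opposite direction, 320 of 329 WT-only LSD1 regions on WT H3K4me2 at boundaries (97.3%) were on H3K4me2 of YAP livers. YAP-only LSD1 away from gene boundaries differed from the boundary regions: 606 of 785 such regions (77.2%) were on WT H3K4me2, a difference of 20.5 points (17.4 to 23.7).

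YAP H3K4me2 regions at boundaries without LSD1 of YAP livers, a set that includes those with WT-only LSD1, were also less often shared with WT, at 17840 of 19527 (91.4%), a difference of 6.33 points (4.96 to 7.26). Among all 20763 YAP H3K4me2 regions at a boundary, 8.21% did not overlap WT H3K4me2. Of the 913 YAP H3K4me2 regions that held YAP-only LSD1, 897 overlapped WT H3K4me2. They were longer, with a median of 1399 bp, against 1102 bp for those without LSD1 of YAP livers. Their median H3K4me2 score, a value given by the authors, was also higher, at 233 against 184. The length classes below were not matched for score. Within length classes, the share on WT H3K4me2 below 500 bp was 89.9% of 119 regions with YAP-only LSD1, against 72.0% of 4678 without it, a difference of 17.9 points (11.1 to 22.4). Between 500 and 1000 bp the shares were 100% with YAP-only LSD1 and 93.1% without LSD1 of YAP livers. From 1000 to 2000 bp they were 98.7% with YAP-only LSD1 and 99.0% without LSD1 of YAP livers, and the interval of the difference included 0.

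The extent of listed H3K4me2 around the regions was nearly equal in the 2 genotypes. Covered bases give the extent of listed regions, and the level of the mark was not compared. Within 2 kb on both sides of the centre, a median of 2.58 kb was covered in YAP livers and 2.70 kb in WT livers. The median log2 ratio of YAP over WT, with 100 bases added to both, was -0.03, with quartiles of -0.17 and 0.05. The same median was -0.05 at LSD1 regions of both genotypes, -0.06 at WT-only LSD1 regions and -0.03 at H3K4me2 regions without LSD1 of YAP livers. At the region centre, 77.5% of the boundary regions were covered in YAP livers and 78.9% in WT livers. Away from boundaries, the centre was covered at 75.9% of YAP-only LSD1 regions in YAP livers and at 59.7% in WT livers. The requirement for YAP H3K4me2 applies to both sets. Overlap with WT H3K4me2 was not required, so the rule favours coverage in YAP livers at the centre.

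**Figure D2:**
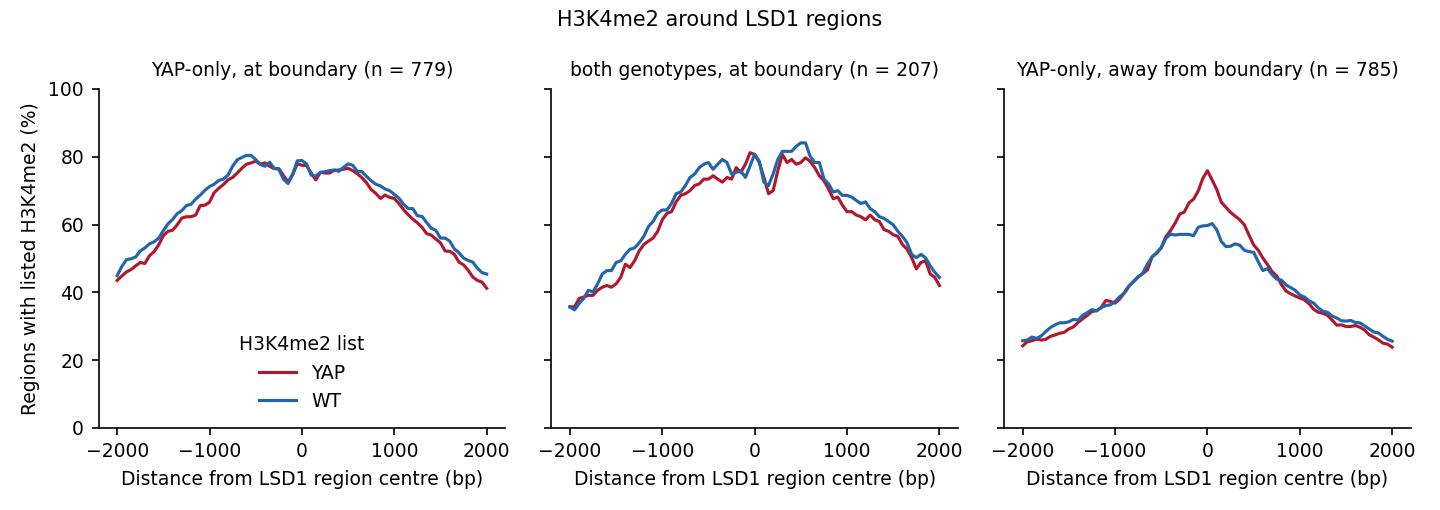
Percentage of LSD1 regions with listed H3K4me2 at each distance from the region centre, in 50 bp steps, for YAP-only regions at boundaries, LSD1 regions of both genotypes and YAP-only regions away from boundaries; red is the YAP list and blue the WT list. The YAP and WT lines lie 1.41 points apart at the centre of the boundary regions and 16.2 points apart at the centre of the regions away from boundaries. Every set had to overlap the YAP list, with no such requirement for the WT list, which favours the YAP line at the centre.

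Many of the regions reached beyond the listed mark. Of the 779 regions, 274 (35.2%) were wholly inside H3K4me2 of YAP livers, and the median region had 79.2% of its bases inside. At least 2 separate H3K4me2 regions were overlapped by 138 regions (17.7%), which thus spanned a gap in the mark. This share was 10.7% for YAP-only LSD1 away from boundaries, a difference of 7.01 points (3.56 to 10.5). It was 20.8% for LSD1 of both genotypes, with a difference whose interval included 0. H3K4me1 was nearly absent: 2 regions, at Bhmt, which encodes a homocysteine methyltransferase, and Fndc3b, overlapped H3K4me1 of YAP livers (0.257%, 0.0704% to 0.931%), and 0 of 779 overlapped that of WT livers, which allows a share of up to 0.385%. At H3K4me2 regions without LSD1 of YAP livers these shares were 3.13% in YAP livers and 2.84% in WT livers. Those regions were wider, with a median of 1102 bp against 400 bp for the YAP-only LSD1 regions. A wider region has more room to overlap, so these shares are not like for like. H3K4me1 was also nearly absent at the other LSD1 regions at boundaries. Of 207 LSD1 regions of both genotypes, 0 overlapped H3K4me1 of YAP livers and 0 that of WT livers. Of 322 WT-only LSD1 regions, 0 overlapped that of YAP livers and 1 that of WT livers. The H3K4me1 lists were short, with 6274 regions in YAP livers and 5905 in WT livers.

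Only 18 regions lacked an overlapping WT H3K4me2 region. For most of them the mark was present nearby: at Atg3 and Slc35a5, 3.65 kb was covered in YAP livers and 3.33 kb in WT livers within 2 kb of the centre. At Tat, tyrosine aminotransferase of amino acid breakdown, the values were 1.80 kb in YAP livers and 2.32 kb in WT livers. Ranbp2, a nuclear pore protein, had 3.48 kb in YAP livers and 2.90 kb in WT livers. At these genes the mark of WT livers lay beside the LSD1 region and not on it. In 5 regions no base within 2 kb was covered in WT livers. They were at Tex37 (2.20 kb covered in YAP livers), Apela, which encodes a secreted apelin receptor ligand (1.97 kb), Slc25a37, which encodes the mitochondrial iron importer mitoferrin-1 (1.10 kb), Cyp2a22 (1.05 kb) and Pth2 (0.246 kb). The regions at Tex37 and Pth2 lay at gene ends only. Every region had to overlap YAP H3K4me2, so the opposite case, no covered base in YAP livers, could not occur.

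Measured at gene starts, large differences between genotypes in H3K4me2-covered bases were less frequent where YAP-only LSD1 was present than where no LSD1 was listed. Such differences were also rare at the other starts with LSD1. Among 9942 starts with YAP H3K4me2, covered bases within 2 kb were at least 1.5-fold lower in YAP livers at 3.39% and at least 1.5-fold higher at 7.29%. Only starts with YAP H3K4me2 within 1 kb were counted, so starts without it in YAP livers were left out. This favours higher over lower starts, and the 2 directions cannot be weighed against each other. Of 732 starts with a YAP-only LSD1 region, 11 (1.5%) were lower and 11 (1.5%) were higher. Of 8689 starts without LSD1, 315 (3.63%) were lower and 710 (8.17%) were higher. At starts with LSD1 of both genotypes, 3 of 191 (1.57%) were lower and 0 were higher, and at starts with WT-only LSD1, 3 of 270 (1.11%) were lower and 2 (0.741%) were higher. Between starts with YAP-only LSD1 and starts without LSD1, the differences were -2.12 points for lower starts (-2.90 to -0.896) and -6.67 points for higher starts (-7.56 to -5.37). Starts with YAP-only LSD1 also had more covered bases, with medians of 2.73 kb in YAP livers and 2.85 kb in WT livers. The medians at starts without LSD1 were 2.35 kb in YAP livers and 2.42 kb in WT livers. With starts limited to those with at least 1 kb covered in WT livers, the share lower in YAP livers was 1.11% with YAP-only LSD1 and 3.38% without LSD1, a difference of -2.27 points (-2.97 to -1.14). For higher starts the limited shares were 0.693% with YAP-only LSD1 and 1.63% without LSD1. The difference was -0.933 points, with an interval of -1.44 to 0.0209 that includes 0.

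The 11 starts with fewer H3K4me2-covered bases in YAP livers included Errfi1, a feedback inhibitor of the EGF receptor. Errfi1 had 1.49 kb in YAP livers and 2.95 kb in WT livers (log2 -0.94). Klhl33 had 0.771 kb in YAP livers and 1.75 kb in WT livers (log2 -1.09). Ccdc124 had 0.808 kb in YAP livers and 1.81 kb in WT livers (log2 -1.08). Pld1, a phospholipase that makes phosphatidic acid, had 1.66 kb in YAP livers and 3.0 kb in WT livers. The other members of this group were Vmn2r29, Golt1a, Zmat1, Vbp1, Ttc26, Fam25c and Zscan12. Vmn2r29 belongs to a large family of similar genes, so its reads may be shared with relatives.

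The 11 starts with more H3K4me2-covered bases in YAP livers included Vgll3, a cofactor that binds TEAD factors. Vgll3 had 3.03 kb in YAP livers and 1.7 kb in WT livers (log2 0.80). Osbpl3, an oxysterol-binding protein relative, had 2.19 kb in YAP livers and 0.889 kb in WT livers (log2 1.21). Apela had 1.72 kb and Cyp2a22 had 1.05 kb in YAP livers, and both were listed at 0 in WT livers. The reverse could not occur, because every start counted had to have YAP H3K4me2. The others were Lmcd1, C1qtnf6, Lrrc49, Olfml2b, Parm1, BC029722 and Ifitm7. Ccn2, a classic YAP target that encodes a matricellular protein, is not among these starts because its strand was not known. At its LSD1 region (chr10:24595098-24595497) 2.09 kb was covered in YAP livers and 0.529 kb in WT livers, a log2 ratio of 1.80.

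**Figure D3:**
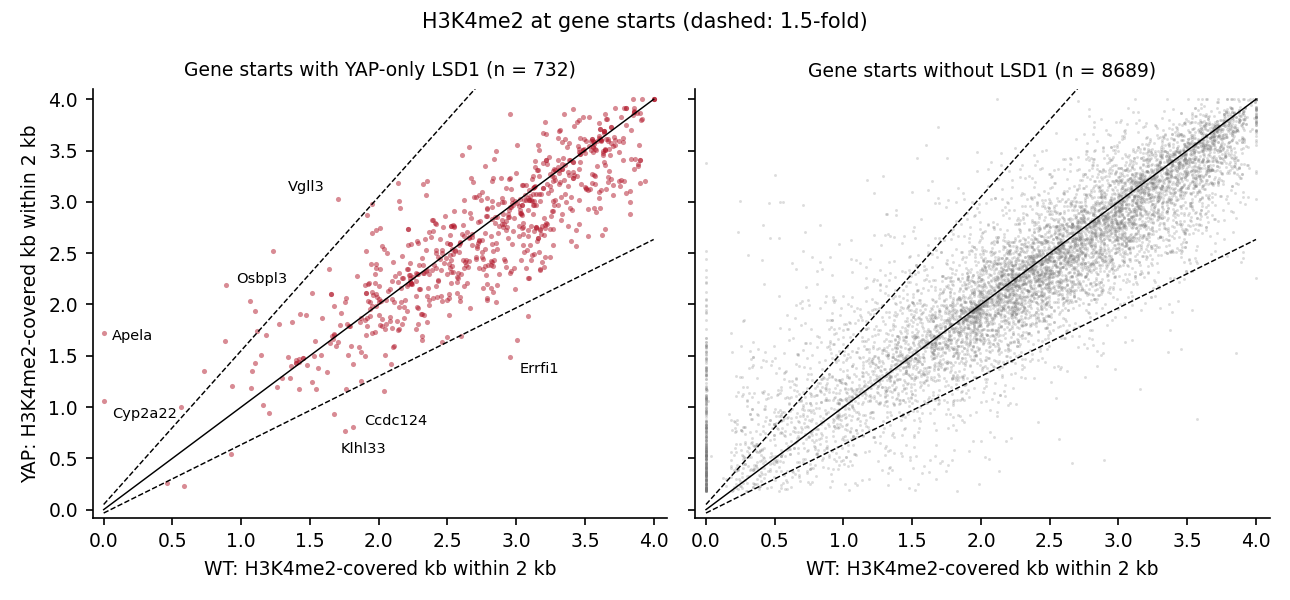
H3K4me2-covered kb within 2 kb of a gene start in YAP livers (vertical) and WT livers (horizontal), at 732 starts with YAP-only LSD1 (left, red) and 8689 starts without LSD1 (right, grey); the solid line marks equality and the dashed lines a 1.5-fold difference with 100 bases added. Outside the dashed lines are 22 starts with YAP-only LSD1, and 7 of those named in the text are labelled.

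The 779 regions lay at 911 protein-coding genes, with 637 regions at 1 gene, 139 at 2 and 3 at 3. The region with the highest LSD1 signal, 90.9 on the scale of the authors, was at the shared boundary of Cep57, a centrosomal protein gene, and Fam76b (chr9:13827067-13827466). It was followed by a region at Gm12500 and Ampd2, which encodes an AMP deaminase, with a signal of 80.5 (chr3:108085355-108085754). That region lay 222 bp from the start of Gm12500 and farther from the start of Ampd2. Next was Cdk20, a cyclin-dependent kinase, with 71.0 (chr13:64432477-64432876). The first 12 also held Btf3l4 with Txndc12, AU041133, Arfip1, Rnf187, Hmgcs1, Shld1, Acap1 with Kctd11, Vgll3 and Rtf2, with signals of 60.3 to 68.9. They are a mixed set: Arfip1 encodes a Golgi protein that binds small GTPases, Rnf187 a ubiquitin ligase, Shld1 a subunit of the shieldin complex of DNA repair, and Rtf2 a replication fork protein. At these 12, WT H3K4me2 was present at each, and the log2 ratio of covered bases ran from -0.42 at Hmgcs1 to 0.70 at Vgll3. The 5 lowest-scoring regions, at Nfe2l1, Pdilt, Fam13a, Scpep1 and Derl2 with Mis12, had scores of 540 or 541, all with WT H3K4me2, and log2 ratios of -0.10 to 0.01.

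Genes of liver metabolism held YAP-only LSD1 most often among the gene lists examined, which were chosen with earlier results of these data known. Over all 12728 protein-coding genes with YAP H3K4me2 at a boundary, 910 (7.15%) held such a region. Of 31 liver metabolism genes with that mark, 7 did (22.6%, 11.4% to 39.8%), and 0 of the 31 held LSD1 in both genotypes or in WT only. Over all genes with the mark, 1.96% held LSD1 in both genotypes and 2.96% in WT only, so counts of 0 among 31 are near those shares. These genes serve cholesterol, bile acid, glucose, fat and amino acid metabolism. With the YAP list limited to 1500 regions, 5 of the 7 remained: Cyp27a1, G6pc, Hmgcs1, Scd1 and Tat. All genes with YAP-only LSD1 numbered 412 with the limited list and 911 with the full list.

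In the cholesterol and bile acid branch, Hmgcs1, the cytosolic HMG-CoA synthase whose promoter is among those printed, had an LSD1 score of 1000, with 2.12 kb of H3K4me2 in YAP livers and 2.87 kb in WT livers (log2 -0.42). Cyp7a1, the rate-limiting enzyme of classical bile acid synthesis, had a score of 747, with 2.09 kb in YAP livers and 2.12 kb in WT livers (chr4:6275616-6276015). Cyp27a1, of the alternative bile acid pathway, had a score of 947 and a region centred 44 bp upstream of the outer boundary of the gene, with 2.89 kb in YAP livers and 2.75 kb in WT livers. Covered bases differed little between genotypes at 2 of these 3, and Hmgcs1 had fewer of them in YAP livers.

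G6pc, the glucose-6-phosphatase of glucose release, had a score of 1000, with 1.96 kb of H3K4me2 in YAP livers and 1.77 kb in WT livers. Scd1, the desaturase that makes monounsaturated fatty acids, had 1000, with 2.65 kb in YAP livers and 2.58 kb in WT livers. Tat had 996. Hepatocyte identity genes held YAP-only LSD1 at 2 of 30, near the share of all genes: Foxa3, a pioneer factor, shares its region with Sympk, and Apoa2, an apolipoprotein of high-density lipoprotein, with Tomm40l. The region counted for Apoa2 was centred 1162 bp downstream of the Apoa2 start, and the edge of the region lay 13 bp from the boundary of Tomm40l. YAP targets held it at 2 of 25 (8.0%, 2.22% to 25%), Ccn2 and Gadd45b, and WT-only LSD1 at 2 others, Mdfic and Nuak2. Hippo pathway genes held YAP-only LSD1 at 2 of 22 (9.09%, 2.53% to 27.8%). The Hippo pathway genes were Stk4, which encodes the kinase MST1, with a score of 916, and Sav1, which encodes its scaffold, with 555.

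Growth-restraining genes held YAP-only LSD1 at 4 of 37 (10.8%, 4.29% to 24.7%): Btg2, an antiproliferative protein, Klf6, a Krüppel-like factor, Gadd45b, a stress-response protein, and Foxo3, a forkhead factor. Of these, Gadd45b had 2.80 kb of H3K4me2 in YAP livers and 2.14 kb in WT livers, and Klf6 had 2.93 kb in YAP livers and 3.35 kb in WT livers. Btg2 had 2.28 kb in YAP livers and 2.10 kb in WT livers, and Foxo3 had 3.59 kb in YAP livers and 3.56 kb in WT livers. None of 36 cell cycle genes and none of 20 biliary and progenitor genes held one, which for 36 genes allows a share of up to 8.33%. WT-only LSD1, at 2.96% of all genes, was at 2 of the 36 cell cycle genes (5.56%), E2f3 and Mcm7. In the polyamine list 1 of 22 did (Azin1, which encodes an antizyme inhibitor), among H3K4 enzymes 1 of 18 (Setd1b, a methyltransferase gene whose region it shares with Rhof), and among genes of the LSD1 complexes 0 of 20. For endothelial, stellate, macrophage and lymphocyte markers with YAP H3K4me2 the counts were 0 of 8, 0 of 4, 0 of 3 and 0 of 3.

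Among families grouped by gene symbol, cytochrome P450 genes had the highest share, 6 of 42 (14.3%, 6.72% to 27.8%). Besides Cyp27a1 and Cyp7a1 they were Cyp39a1, an oxysterol hydroxylase, Cyp4v3, a fatty acid hydroxylase, Cyp4f14 and Cyp2a22. Cep genes followed with 4 of 34 and translation initiation factors with 6 of 52, among them Eif2s1, the alpha subunit of eIF2, and Eif2b1 and Eif2b2, subunits of its exchange factor. Ubiquitin-conjugating and Usp genes had the lowest share, 1 of 76 (1.32%, 0.233% to 7.08%), and zinc finger genes had 21 of 378 (5.56%). All but the liver metabolism and the ubiquitin intervals contained the share of all genes, 7.15%. With 14 lists and 20 families compared, and the lists chosen with earlier results known, these intervals are descriptions.

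**Figure D4:**
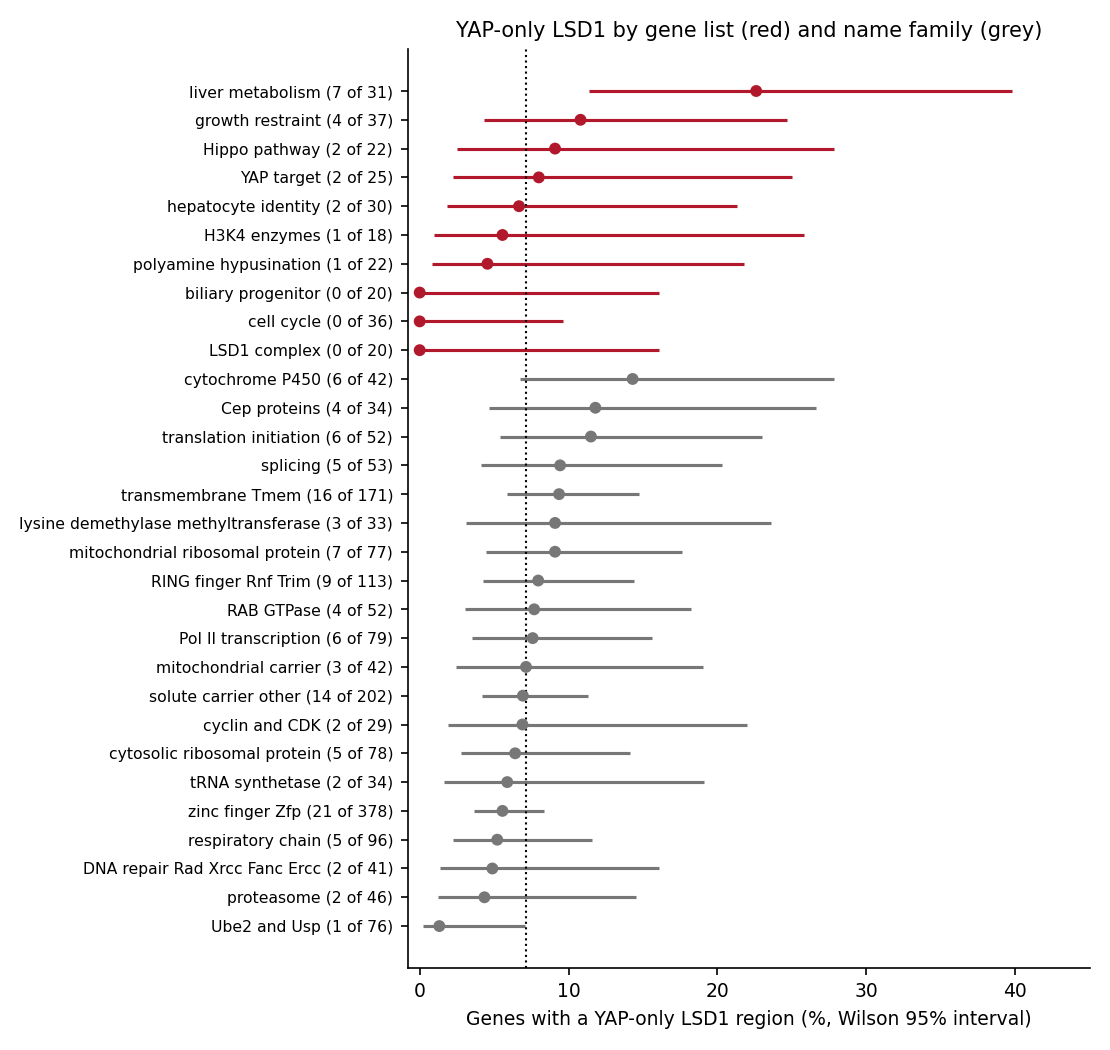
Percentage of genes with YAP H3K4me2 at a boundary that held a YAP-only LSD1 region, for gene lists (red) and families grouped by symbol (grey) with at least 18 such genes; points are shares, lines 95% intervals, counts are in the labels, and the dotted line is the share of all genes (7.15%). Liver metabolism is highest at 22.6%, with an interval that starts at 11.4%, among lists chosen with earlier results of these data known.

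Divergent gene pairs, whose starts face away from each other within 1000 bp or overlap by up to 200 bp, were counted by gene start. Of 732 starts with YAP-only LSD1, 155 (21.2%, 18.4% to 24.3%) had a divergent partner, against 1096 of 8689 starts without LSD1 (12.6%), a difference of 8.56 points (5.67 to 11.7). The share was 24.1% at starts with LSD1 of both genotypes and 15.6% at starts with WT-only LSD1. Both starts of a pair can share 1 region, so the starts are not independent and these intervals are too narrow. A region at 1 start can also bring in its partner, which raises the shares at starts with LSD1 themselves. The difference from starts without LSD1 is therefore not like for like, and no excess is read from it. Both starts of a pair lay within reach of 76 of the 645 regions at a start (11.8%). The highest-scoring pairs besides Btf3l4 with Txndc12 included Rnf40 with Ccdc189, Kntc1 with Rsrc2, and Eif2s1 with Atp6v1d. Rnf40 encodes a subunit of the ligase that ubiquitinates histone H2B, and Kntc1 a kinetochore protein.

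In base composition the promoters resembled other marked promoters. The RefSeq window began at the gene boundary for 411 of 691 starts with YAP-only LSD1, and up to 997 bp inside the gene for the others. Over these 300-base windows, the median GC content was 61.3% at starts with YAP-only LSD1, the same as at 8012 starts with H3K4me2 without LSD1, against 56.3% over all 15752 promoters. The median ratio of observed to expected CpG was 0.804, against 0.774 without LSD1 and 0.586 over all promoters. CCAAT, matched on both strands as all motifs were, was in 44.0% of windows, against 38.9% without LSD1, a difference of 5.10 points (1.29 to 8.98), and in 39.4% of all promoters. The ZNF143 motif ACTACAA was in 6.95%, against 4.36% without LSD1 and 3.85% of all, and the FOXA motif TGTTTAC in 3.47%, against 2.27% without LSD1 and 2.95% of all. The FOXA difference from promoters without LSD1 was 1.20 points (0.0203 to 2.87). ZNF143 was in 5.52% with LSD1 of both genotypes and 4.65% with WT-only LSD1, and both difference intervals included 0. FOXA was in 0.552% with LSD1 of both genotypes, a difference of 2.92 points (0.169 to 4.63). With WT-only LSD1 it was in 2.71%, and that interval included 0.

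The TEAD core GGAATG was in 10.6% of the windows, against 11.5% without LSD1 (difference -0.968 points, -3.17 to 1.64), 17.7% at LSD1 of both genotypes (difference -7.12 points, -13.7 to -1.64) and 13.3% of all promoters. For the other 11 motifs the interval of the difference from promoters without LSD1 included 0. Over all promoters their shares were 46.7% for the GC box GGGCGG, 12% for the ETS motif CCGGAAG, 5.01% for NRF1 (GCGCATG), 5.50% for YY1 (ATGGCGG), 4.04% for TGACGTC and 8.01% for CACGTG. They were 4.55% for AP-1 (TGAGTCA), 13.7% for the TATA box (TATAAA), 11.5% for GFI1 (AAATCNC), 4.22% for HNF4 (AAAGTCC) and 2.78% for C/EBP (TTGCGCA). With 15 motifs compared, and no replicate to check them against, the motif differences are descriptions.

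**Figure D5:**
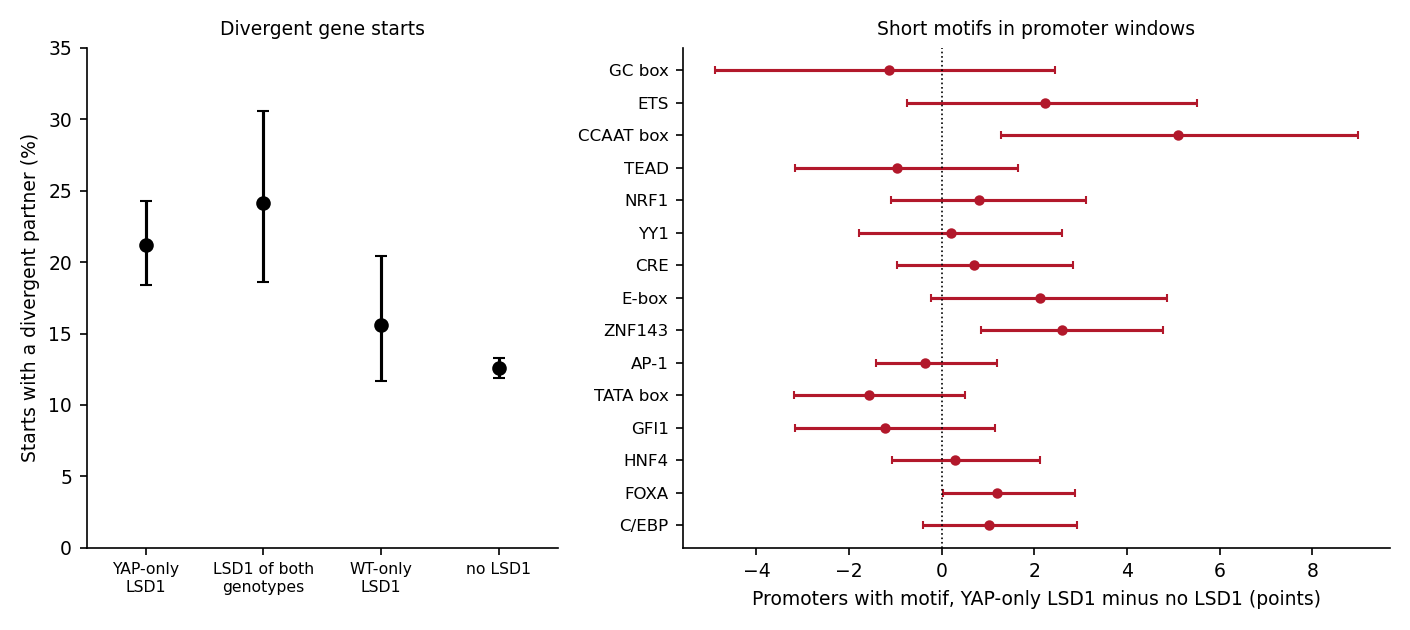
Left, percentage of gene starts with a divergent partner, for starts with YAP-only LSD1, LSD1 of both genotypes, WT-only LSD1 and none; right, difference in the share of promoter windows with each motif, YAP-only LSD1 minus no LSD1, in percentage points. Bars are 95% intervals. The divergent share, counted by start so that 1 region can add 2 starts, is 21.2% with YAP-only LSD1 and 12.6% without LSD1. Of 15 motif intervals, 3 lie above 0.

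The X chromosome held few of the regions. Of 349 X-linked genes with YAP H3K4me2 at a boundary, 8 (2.29%, 1.17% to 4.46%) held YAP-only LSD1, against 902 of 12375 autosomal genes (7.29%), a difference of -5.00 points (-6.22 to -2.79). The share among X-linked genes was also lower for WT-only LSD1, at 0.287% against 3.04% on autosomes. Genes encoding other RNAs were overlapped by some regions: 83 (10.7%) overlapped a long noncoding RNA gene and 6 (0.770%) a transfer RNA gene, at Tmpo, Lta4h, Mrpl58, Prmt5, Tia1 and Fbxo31. For long noncoding RNA genes the share was 11.6% of LSD1 regions of both genotypes and 13.7% of WT-only LSD1 regions. For transfer RNA genes it was 1.93% of LSD1 regions of both genotypes and 0.621% of WT-only LSD1 regions.

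A few genes held more than 1 region. There were 13 such genes, among them Ifitm3, with 1 region at its start and 1 at its end, the histone gene H3c1, with regions shared with H4c1 and H1f1, and Acbd5, with regions 175 and 900 bp downstream of its start. Copies of histone and Ifitm genes are similar in sequence, and the sources used here do not say how reads with several matches were handled. The values around the 1 kb limit are given as a description. Just inside it were the regions at Homer1 (957 bp), Mrpl58 (965 bp), Ints6l (976 bp), Tex37 (981 bp) and Gm31513 (995 bp). Just outside were those at Dclre1b (1003 bp), 9130409I23Rik (1008 bp), Crip2 (1025 bp), Wsb1 (1037 bp) and Zhx2 (1046 bp), each on WT H3K4me2, with scores of 585 to 904.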

How the data were processed

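Region lists of H3K4me1, H3K4me2 and LSD1 in YAP and WT livers were used. Per the labels, chromatin was cut with micrococcal nuclease, libraries had 15 PCR cycles, and both replicates of an antibody and genotype stand in 1 list, so the authors combined them. The submitters' processing notes name mm10 as the build, and Trimmomatic 0.39, SAMtools 1.7, Picard 1.126, BWA, deepTools 3.3.0 and bedtools 2.26.0 as tools. How replicates were combined, how regions were called and whether the 2 inputs served as background is not given in the sources used here. The read depth is unknown. The deposited score and signal of each region are the authors' values, undefined for LSD1, and ranked or filtered regions within a list only. The deposited −log10 p-values of the histone lists entered no comparison.

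LSD1 entries that overlapped or touched were merged. Overlap meant at least 1 bp. Boundaries of 21887 protein-coding genes came from a RefSeq gene table of GRCm38.p6, which gives no exons, and strand for 17492 of them from RefSeq promoter windows. Wilson and Newcombe 95% intervals were computed with Python 3.11.15, numpy 2.4.6 and pandas 2.3.3. The overlap routine was checked against bedtools 2.31.1 on simulated regions. The limit for a count of 0 is 3 counts.

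The members and lists were chosen with earlier results of these data known. Named were the 12 highest-scoring and 5 lowest-scoring regions, regions without WT H3K4me2, members at listed genes, up to 3 per family, divergent pairs, genes with several regions and the 5 nearest regions on each side of the distance limit. Promoters of Ccn2 and Cyp7a1 are not printed, and a few members that the rule names are not reported here. Position around the start, H3K4me2 at gene starts, length classes, divergent pairs, chromosomes and noncoding genes were examined after the data had been seen.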

Additional observations from a re-analysis of the deposited data

How the results depend on the processing

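The 10 summary results were recomputed under 11 alternatives in all, giving 72 values, of which 66 stayed close to the reported ones. With the YAP LSD1 list limited to as many regions as the WT list, the regions numbered 352 at 412 genes. With at least 50% of the LSD1 region on YAP H3K4me2, 98.8% were on WT H3K4me2. With a boundary distance of 500 bp, 98.6% were at a gene start. With a 5 kb window, the median log2 ratio of H3K4me2-covered bases was -0.08. With the higher-scoring 50% of each H3K4me2 list, the share on YAP H3K4me1 was 0%. The number of liver metabolism genes (5 to 8) and the share of starts with a divergent partner (19.8% to 22.5%) were recomputed under alternatives chosen after seeing the data, as was the share of centres within 200 bp of a start, which was 51.4% with the start of the RefSeq promoter window. No paired analysis was possible because both replicates of each antibody and genotype stand in 1 list, and for the same reason no replicate could be left out. Depth is unknown, so a region missing from a list may lie below its threshold, and the difference in list length cannot be told apart from a difference between genotypes.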
